A study of Mus musculus with 8 samples.

Results

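The genes described here encode the intraflagellar transport (IFT) particles of the cilium and the motors that move them. They are 32 of 26180 annotated mouse genes and were chosen by name, from their known place in the machinery, with earlier results of these data known: 6 subunits of the IFT-A complex, the IFT-A adaptor Tulp3, 17 subunits of the IFT-B complex, and 8 motor subunits, of which 4 belong to dynein-2 and 4 to kinesin-2. All 32 matched by symbol in RefSeq. For each gene, the peaks of 4 lists were sought in a promoter window that ran from 1000 bp upstream to 100 bp downstream of a transcription start site (TSS). The lists map MOF, the acetyltransferase of histone H4 lysine 16 (also called Kat8), the transcription factor Rfx2, and the histone modifications H3K4me3 and H3K27Ac. All libraries came from total epidermis of Wildtype mice at postnatal day 0.5, separated from the back skin dermis with an enzyme, so keratinocytes and every other epidermal cell were measured together. MOF was mapped by ChIPseq, with fixed and fragmented chromatin, and the other targets by Cut&Run, in which an antibody guides the release of DNA fragments from permeabilized cells. No mutant or treated group was compared, and each antibody entered with 1 list.

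Cilia are built and kept by a shuttle. IFT-B carries cargo such as tubulin from the base to the tip, pulled by kinesin-2, and IFT-A returns with dynein-2 and also guides membrane proteins into the cilium. In the epidermis and the hair follicle, the primary cilium is the organelle through which Hedgehog signals are received. Factors of the RFX family are known regulators of ciliary genes in many animals, and they bind a motif called the X-box, a pair of inverted repeats with a short spacer. H3K4me3 marks the promoters of active genes, and H3K27Ac marks active promoters and enhancers.

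With 1 list per antibody there was no spread between replicates and no test across samples. The exact (Clopper-Pearson) 95% intervals given below cover counting over genes only. Peak height was the fold enrichment at the summit for H3K4me3, H3K27Ac and Rfx2, and the peak caller's score, of unstated scale, for MOF. The MOF list holds gapped peaks, in which a broad span encloses 1 or more narrower strong blocks, and a MOF peak below means the whole span unless its strong blocks are named. Heights were ranked within a list and never compared between lists, and a percentile states where a gene stood among all genes with a promoter peak in the same list. H3K4me3 lay at the promoters of 6 of 8 keratinocyte markers, 2 of 5 melanocyte markers, 2 of 5 fibroblast markers, 1 of 4 endothelial markers and 0 of 4 leukocyte markers. The keratinocyte markers Krt1 and Krt10 of differentiating layers lacked it, and the part of each cell type in the peaks of the members was not tested.

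The sequences below show the promoters in which an X-box stood just upstream of the start, those of Ift57 (IFT-B), Dync2li1 (dynein-2) and Kif17 (kinesin-2). Each is the 100 bases that end at the base before the TSS, on the plus strand of mm10 as RefSeq gives it, with the X-box in capitals. They lie at chr16:49699194-49699293, chr17:84626375-84626474 and chr4:138262151-138262250.

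Ift57: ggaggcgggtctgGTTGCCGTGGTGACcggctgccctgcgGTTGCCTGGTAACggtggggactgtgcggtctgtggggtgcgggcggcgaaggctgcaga
Dync2li1: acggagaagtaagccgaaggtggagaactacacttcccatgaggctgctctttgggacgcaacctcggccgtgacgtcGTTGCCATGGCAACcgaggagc
Kif17: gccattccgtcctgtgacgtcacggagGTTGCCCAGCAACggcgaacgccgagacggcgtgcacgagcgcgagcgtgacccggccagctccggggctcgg

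The Ift57 promoter held a pair of X-boxes, and the match of Dync2li1 read the same on either strand. Only Ift57 among these 3 had an Rfx2 peak. The fourth match stood downstream of the start of Wdr35 (IFT-A), in the 5′ UTR of its first exon at chr12:8974041-8974053, and is printed here on the minus strand, with the spacer in lower case.

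Wdr35: GTCGCCtGGCAAC

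All 32 members had H3K4me3 at the promoter, against 54% of all annotated genes. With the peak centre required inside the window, H3K4me3 was counted at 14 members, and no background was counted by that rule. The window ends 100 bp past the TSS, while the median centre of the members' H3K4me3 peaks lay 132 bp downstream. All 32 of these peaks covered the TSS. H3K27Ac was at the promoter in 31 members, against 44.1% of all genes and 79.8% of the genes with H3K4me3. Ift22, which encodes a small GTPase of IFT-B, was the exception, and its nearest H3K27Ac peak lay 10717 bp from the TSS, from which all such distances are given. The H3K27Ac peaks of Dync2h1 and Kif3b overlapped the window by only 13 and 57 bp. With at least 100 bp of overlap 29 members had H3K27Ac. The count was 25 with the peak centre inside the window, and also 25 with the 50% highest peaks. The H3K27Ac backgrounds were not recounted by these rules. MOF was found at 11 of the 32 promoters (34.4%, interval 18.6 to 53.2), against 23.7% of all genes and 42% of genes with H3K4me3. Read against the H3K4me3 genes, which these members all are, the share with MOF was not above the background. Counted by strong blocks alone, a choice made after seeing the data, MOF lay at 10 of the 32 promoters (31.2%, interval 16.1 to 50), against 20.6% of all genes and 36.8% of genes with H3K4me3. Rfx2 was found at 5 of the 32 promoters (15.6%, interval 5.28 to 32.8). The background for Rfx2 was 1.21% of all genes and 2.24% of the genes with H3K4me3, both below the lower bound of the members' interval. The comparison rests on 2 peaks at the edge of the window, those of Wdr35 (16 bp of overlap) and Ift81 (48 bp). Without them 3 of 32 members had Rfx2 (9.38%, interval 1.98 to 25). That interval held the 2.24% and not the 1.21%, but both backgrounds count peaks with any overlap. They were not recounted by a stricter rule, so no conclusion is drawn from the lower count. With 500 bp on either side of the TSS 5 members had Rfx2, and with the 50% highest peaks 4 had it. Ift122, Ift81 and Wdr34 carried MOF and Rfx2 together (9.38% of members, interval 1.98 to 25, against 0.787% of all genes and 1.46% of those with H3K4me3). Ift81 is lost when the peak centre must lie in the window and with at least 100 bp of overlap. It is also lost when the lists are limited to their 50% highest peaks and when only strong blocks count. Without it 2 of 32 members carried both (6.25%, interval 0.766 to 20.8). That interval held the 0.787% and the 1.46%. These backgrounds were not recounted by the stricter rules, so the shares are not of like form and no conclusion is drawn. In all, 13 members had MOF or Rfx2 (40.6%, interval 23.7 to 59.4), against 24.1% of all genes and 42.8% of genes with H3K4me3, and 19 had neither.

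**Figure D1:**
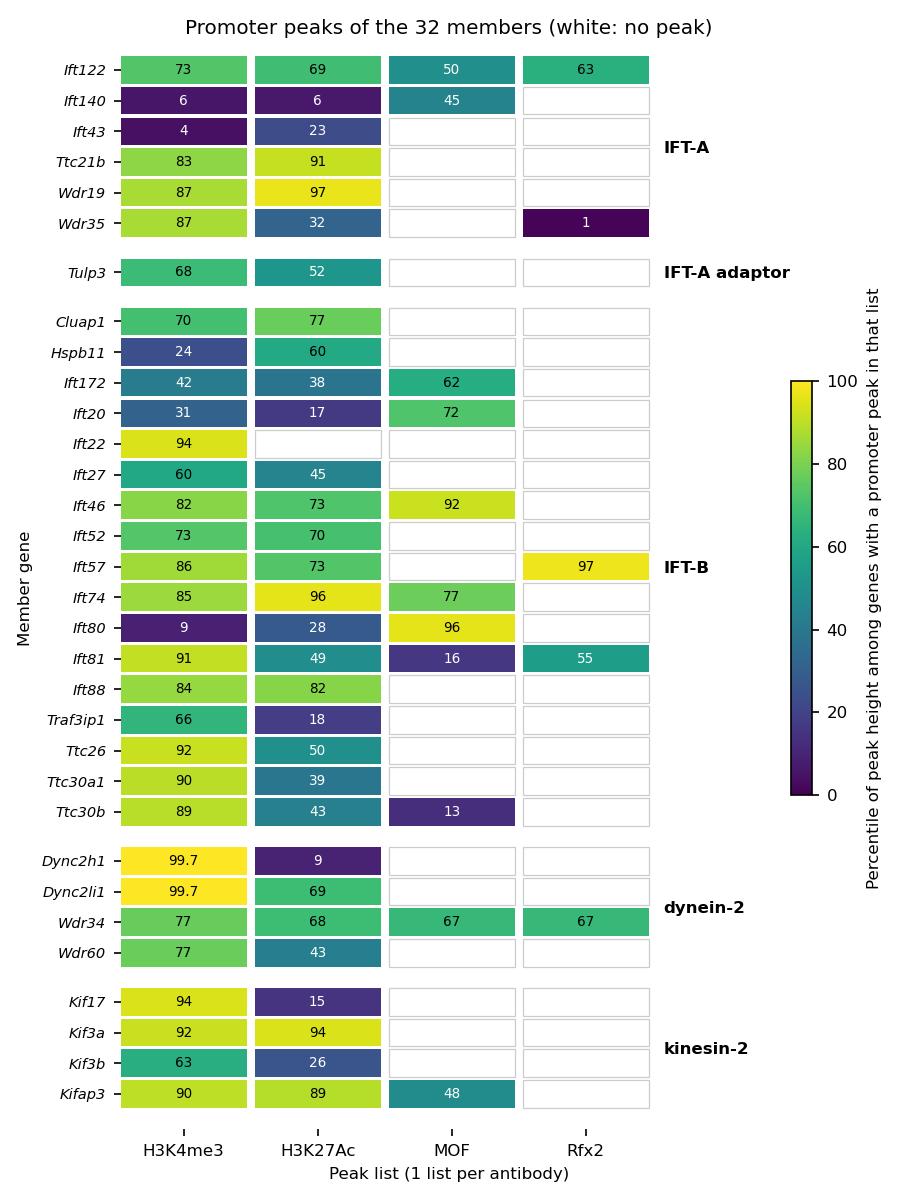
Height percentile of the promoter peak of each of the 32 members (rows, by complex) in the 4 lists (columns), from dark (0) to bright (100), with white tiles where no peak overlapped the promoter window. H3K4me3 fills every row and H3K27Ac all rows except Ift22, while MOF fills 11 rows and Rfx2 5.

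IFT-A had MOF at 2 of its 6 promoters and Rfx2 at 2 of 6, with Ift122 in both counts. Ift122 encodes a core scaffold subunit. Its MOF peak scored 653 (percentile 49.7) and reached from 605 bp upstream to 245 bp downstream of the TSS, and its Rfx2 peak had a fold enrichment of 8.36 (percentile 63.4) with the summit 49 bp upstream. Ift140, also a core subunit, had MOF with a score of 633 (percentile 44.6) and no Rfx2 peak within 812736 bp. Wdr35 showed the converse, Rfx2 without MOF. Its Rfx2 peak had a fold enrichment of 4.16 (percentile 0.946) and a −log10 q-value of 1.32, the lowest in the list. Ift43, Ttc21b and Wdr19 had neither, and the nearest MOF peaks to them lay 15417, 131805 and 28945 bp away. Ttc21b and Wdr19 stood high for both histone modifications, with H3K4me3 fold enrichments of 10.8 and 11.3 and H3K27Ac fold enrichments of 10.1 and 11.5 (percentiles 91.3 and 96.6). Ift43 was at the other end, with the lowest H3K4me3 fold enrichment of the members, 3.84 (percentile 4.07). The adaptor Tulp3, which couples IFT-A to membrane receptors, had H3K4me3 of 9.39 and H3K27Ac of 6.85 and neither MOF nor Rfx2.

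IFT-B had MOF at 7 of its 17 promoters and Rfx2 at 2 of 17. The MOF peaks of IFT-B ranged widely in score. Ift80 had the highest score of all members, 1465 (percentile 96.0), and Ift46 followed with 1224 (percentile 91.9). Ift74, which binds tubulin together with Ift81, scored 919 (percentile 77.4) and had its nearest Rfx2 peak 437811 bp away, and Ift20, which also acts at the Golgi, scored 848 (percentile 72.3). Ift172 scored 742 (percentile 61.8). The lowest scores were those of Ift81, 439 (percentile 16.0), and Ttc30b, 423 (percentile 13). The whole spans ran from 210 bp at Ift74 to 1688 bp at Ift20 and the strong blocks within them from 200 bp at Ift74 and Ift81 to 494 bp at Ift80. The strong block of Ift81 stood 360 to 559 bp downstream of the TSS, outside the promoter window.

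Ttc30b and Ttc30a1 encode near copies of the same subunit. Only Ttc30b had a MOF peak, which ran from 504 bp upstream to 1162 bp downstream of its TSS and so into its coding exon. Of the stretches of 31 bases in that peak, 34.5% occurred in or near Ttc30a1 and 38.7% in or near the further copy Ttc30a2. The place of these stretches in the peak was not examined, and reads longer than 31 bases may still be unique. Whether reads of the peak belong to another copy was not tested, and the assignment is uncertain. The promoter windows themselves shared no stretch of 31 bases between Ttc30a1 and Ttc30b.

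Ift57, a subunit of the peripheral part of IFT-B, had the strongest Rfx2 peak of the members, with a fold enrichment of 16.4 (percentile 97.3). The peak covered both X-boxes shown above, whose centres lay 81 and 107.5 bp from the summit. Ift57 had no MOF peak at its promoter, and the nearest lay 294893 bp away, the longest such distance among the members. Ift81 had Rfx2 with a fold enrichment of 7.77 (percentile 55.4) and MOF. Its Rfx2 summit lay 179 bp downstream of the TSS, and 48 bp of the peak entered the promoter window. The other 9 subunits had neither factor. They include Ift88 and Ift52 of the core, the GTPases Ift27 and Ift22, Hspb11 (the partner of Ift27), Ttc26, Traf3ip1, Cluap1 and Ttc30a1. Ift88, whose loss is a classic cause of missing cilia, came closest to MOF: a peak with a score of 494 was centred in its first intron, from 1336 to 1652 bp downstream of the TSS, and a window of 2500 bp on either side of the TSS brought the members with MOF from 11 to 12.

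Of the motor genes, 2 of 8 had MOF and 1 of 8 had Rfx2. Wdr34, an intermediate chain of dynein-2 (also named Dync2i2), carried both, with a MOF score of 801 (percentile 67.0) and an Rfx2 fold enrichment of 8.5 (percentile 66.9). Its Rfx2 summit lay 51 bp downstream of the TSS, in the coding part of the first exon. Kifap3, the accessory subunit that joins the kinesin-2 heads to cargo, had MOF only, with a score of 651 (percentile 48.4). The kinesin-2 subunits had Rfx2 at 0 of 4 promoters, which allows a share of up to 60.2%. Dync2h1, the dynein-2 heavy chain, and Dync2li1, its light intermediate chain, had the highest H3K4me3 fold enrichments of the members, 16.9 and 17.1 (percentiles 99.7 and 99.7), and neither factor. The kinesin-2 heads Kif3a, Kif3b and Kif17 had H3K4me3 fold enrichments of 12.2, 8.93 and 12.8 and neither factor, as had Wdr60, the other intermediate chain of dynein-2, with 10.2.

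The whole spans of the 11 MOF peaks all covered the TSS, and their centres lay between 214 bp upstream and 329 bp downstream. A strong block covered it in 7 of them and not in Ift140, Ift80, Ift81 or Wdr34. The median score was 742 against 656 over all genes with MOF, the median span 851 bp against 1015 bp, and the median length of the strong blocks 337 bp against 344 bp. The Rfx2 peaks were narrow, from 191 to 393 bp, and 3 of the 5 covered the TSS. The Rfx2 count moved with the overlap rule. With at least 100 bp of overlap, or with the peak centre inside the window, Ift81 and Wdr35 dropped out and 3 members had Rfx2. Among the 27 members without Rfx2 the nearest peak lay between 52208 bp (Ttc26) and 22724068 bp (Ttc30b) away, with a median of 2944874 bp. For MOF, whose list held 17546 peaks against 337 for Rfx2, the median distance in the 21 members without it was 38451 bp.

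IFT-A, IFT-B and the motors could not be told apart on these counts. MOF lay at 33.3% of IFT-A promoters (interval 4.33 to 77.7), 41.2% of IFT-B promoters (18.4 to 67.1) and 25% of motor promoters (3.19 to 65.1). Rfx2 lay at 33.3% (4.33 to 77.7), 11.8% (1.46 to 36.4) and 12.5% (0.316 to 52.7), in the same order. Every interval held the shares of the other groups. No test between the groups was made.

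**Figure D2:**
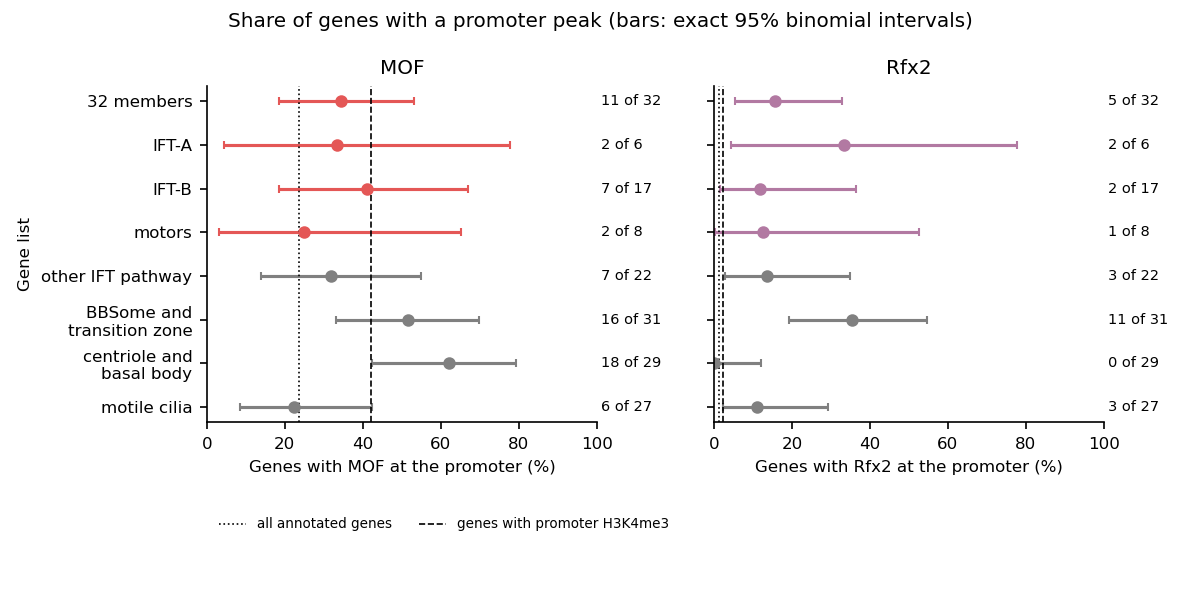
Share of genes with MOF (left) and Rfx2 (right) at the promoter for the members, their complexes and other ciliary gene lists, with exact 95% binomial intervals, the counts at the right, and the shares of all annotated genes (dotted) and of genes with H3K4me3 (dashed) as vertical lines. The members' interval for MOF holds the dashed line at 42%, and their interval for Rfx2 begins at 5.28%, to the right of the dashed line at 2.24%.

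The members stood high for H3K4me3 and in the middle for H3K27Ac. The median H3K4me3 fold enrichment was 10.8 against 8.04 over all genes with such a peak, and 26 of the 32 members stood above the median of those genes and 19 above the 75th percentile. By complex the medians were 10.3 in IFT-A, 10.8 in IFT-B and 12 in the motors. For H3K27Ac the median was 6.70 against 6.72, and 15 of the 31 members with a peak stood above the median. When the −log10 q-value was ranked in place of the fold enrichment, the members' median percentile went from 82.7 to 67.7 for H3K4me3 and from 49.7 to 34.7 for H3K27Ac.

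H3K4me3 height went with width. Among the members, wide peaks were low and narrow ones high (Spearman rho −0.64 over 32 members and −0.21 over 14132 genes, each given as a description of 1 library). The widest peak, 3504 bp at Ift140, had a fold enrichment of 4.10, and the next, 2748 bp at Ift80, had 4.62. Dync2h1 and Dync2li1, the highest, were 747 and 843 bp wide. Ift43 was the exception, low at 687 bp. By H3K4me3 width, MOF lay at 1 of 7 members with a peak under 1000 bp, 7 of 20 from 1000 bp to under 1500 bp, and 3 of 5 at 1500 bp or more. Over the genes with H3K4me3 the same classes gave 23.1%, 43.3% and 54.6%. The members' median width was 1202 bp against 1319 bp over these genes.

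**Figure D3:**
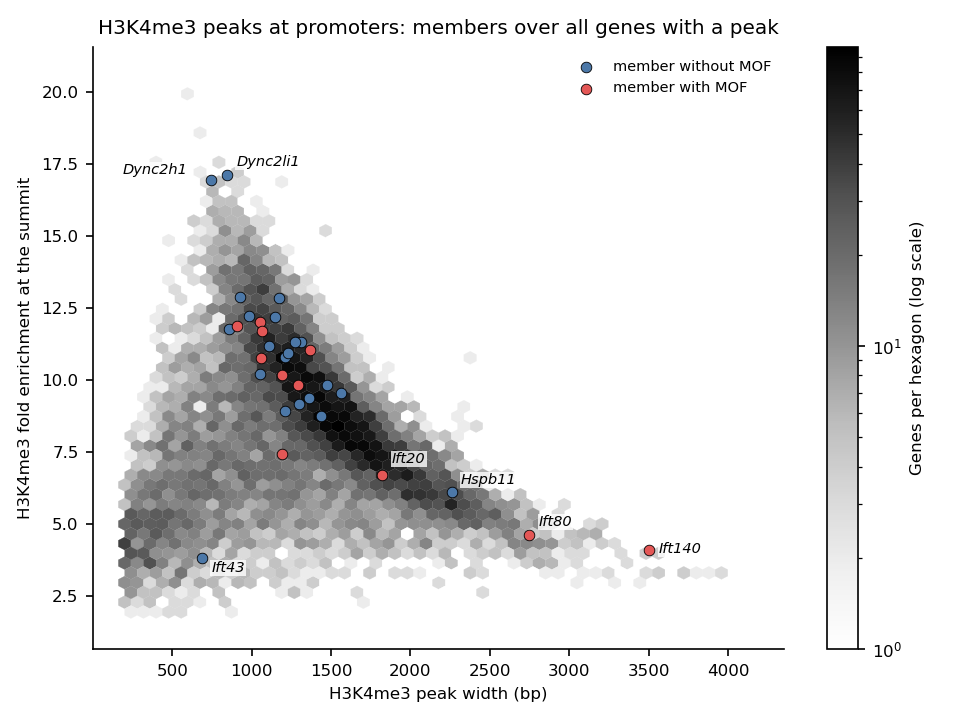
Fold enrichment at the summit against width (bp) of the H3K4me3 promoter peak, as points for the 32 members (red with MOF, blue without) over all 14132 genes with such a peak (grey hexagons, log count scale). The members run from Dync2li1 (17.1 at 843 bp) to Ift140 (4.10 at 3504 bp), 26 of the 32 stand above the median height of 8.04, and Ift43 (3.84 at 687 bp) is the lowest.

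Some of these peaks cannot be assigned to the ciliary gene alone. In 9 of the 32 members (28.1%) a gene on the opposite strand started within 1000 bp, as in 3436 of the 14132 genes with H3K4me3. MOF lay at 5 of these 9 promoters and at 6 of the other 23, while among all genes with H3K4me3 it lay at 56.7% of those with such a partner and at 37.3% of those without. Ift122 started 187 bp from Mbd4, a DNA repair glycosylase, and a single peak of each of the 4 lists overlapped both promoter windows. Ift80 started 168 bp from Smc4, a condensin subunit, Ift20 started 101 bp from Tnfaip1, and Ift140 started 856 bp from Cramp1l, and each pair shared its H3K4me3, H3K27Ac and MOF peak. Kifap3 started 43 bp from the long non-coding RNA Gm51663, with which it shared the same 3 kinds of peak. Hspb11 with Lrrc42, 159 bp apart, Cluap1 with 1700037C18Rik and Gm41410, 356 bp from the nearest start, and Kif3a with the long non-coding RNA A430108G06Rik, 56 bp apart, shared H3K4me3 and H3K27Ac and had no MOF. Dync2h1 differed in layout: Dcun1d5 started 468 bp inside it, so that these genes overlap. The H3K4me3 and H3K27Ac peaks of Dync2h1 also overlapped the promoter window of Dcun1d5.

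At the shared promoters the H3K4me3 summit stood beyond the partner's start in 5 of the 9, at 327 bp upstream of Ift122, 318 bp upstream of Ift20, 315 bp upstream of Hspb11, 1175 bp upstream of Ift80 and 1617 bp upstream of Ift140. It stood between the starts in 2 (Cluap1 and Dync2h1) and on the ciliary gene's own side in 2 (Kif3a and Kifap3). In the 24 members with no upstream partner the summit ranged from 117 bp upstream to 447 bp downstream, with a median of 71 bp downstream. At Ift80 the H3K27Ac peak ended 167 bp upstream of the TSS, at the start of Smc4, and did not cover the start of Ift80. The span of the MOF peak covered it, and the strong block of that peak ended 141 bp upstream.

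Beyond the promoters, H3K27Ac peaks lay in the gene bodies of 11 members (34.4%), with 6 of these peaks in Ift43, against 20.5% of all genes and 30.3% of genes with H3K4me3 at the promoter. MOF peaks lay in the bodies of 7 (21.9%), with 2 in Cluap1, against 17.5% and 23.3%. H3K4me3 peaks lay in those of 5 (15.6%; Ttc21b, Tulp3, Ttc26, Kif3a and Kif17), against 20.3% and 27.3%, and Rfx2 peaks in 0, against 0.191% and 0.283%. These shares were not adjusted for gene length, whose median was 40849 bp in the members, 13453 bp in all genes and 20912 bp in those with H3K4me3.

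The X-box was searched on both strands with 0 to 3 bases between its repeats. It stood in 4 of the 33 promoter windows of the members (12.1%, interval 3.40 to 28.2; Hspb11 has a pair of start sites), against 2.68% of all promoter windows, 2.89% of those with H3K4me3 and 25.3% of those with Rfx2. With exactly 2 bases between the repeats it stood in 2 member windows (6.06%, interval 0.743 to 20.2), against 1.19% of all windows, 1.41% of those with H3K4me3 and 14.3% of those with Rfx2, and the interval held all 3 of these shares. Of the 4 members with a match, Ift57 and Wdr35 had an Rfx2 peak and Dync2li1 and Kif17 did not, with the nearest Rfx2 peaks 463891 and 668260 bp away. Over all promoters with H3K4me3 and an X-box, 97 of 487 (19.9%) had Rfx2. The Wdr35 match did not lie in its Rfx2 peak but 32 bp outside, 134 bp from the summit. A match states only that these letters are present.

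The remaining Rfx2 peaks held near matches, which are shown because they are the closest to an X-box under those peaks. Each differs from the X-box at 1 of the 12 repeat letters. They are printed with the spacer in lower case, Ift122 as chr6:115853571-115853585 in the 5′ UTR of exon 1 and chr6:115853760-115853773 in intron 1, Ift81 as chr5:122614423-122614437 in the 5′ UTR of exon 1 or intron 1 depending on the transcript, and Wdr34 as chr2:30048862-30048875 in coding exon 1. The second of Ift122 is on the plus strand and the others are on the minus strand.

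Ift122, nearer the summit: GCTACCcttAGCAAC
Ift122, farther from it: ATTGCCatGGCAAC
Ift81: GTAACCcccGCCAAC
Wdr34: GTCGCCatGGCAAT

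Their centres lay 99, 287.5, 65 and 40.5 bp from the summits, in that order. The best matches under the Wdr35 peak had 2 mismatches. In 39.8% of 329 Rfx2 peaks a match with at most 1 mismatch lay entirely within 100 bp of the summit. The share was 6.41% in 26713 H3K4me3 peaks without Rfx2. Both Ift122 matches printed above lay at least partly outside that distance.

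A part of the X-box was more common. The 6 bases GTTGCC, which can be 1 repeat of an X-box and were also counted where they were, occurred on either strand in 20 of the 33 windows (60.6%), from 19 members: 12 of IFT-B, 4 motor genes and 3 of IFT-A. The share was 32.8% over all windows, 34.1% over those with H3K4me3 and 64.1% over those with Rfx2. In the 300 bp around the TSS, a window that lies mostly upstream of it, the share was 42.4% (14 of 33) against 12.2% of all windows. Of the 19 members with the 6 bases in the promoter window, Ift57, Ift81 and Wdr35 had Rfx2, as did 5 of all 32. Over all promoter windows with H3K4me3 and the 6 bases, 246 of 5733 (4.29%) had Rfx2.

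The other motifs were searched as fixed letters on both strands. CCAAT, the NF-Y box, stood in 81.8% of member windows against 75.4% of those with H3K4me3, and near the start in 66.7% against 37.3%. TGCGCA, the NRF1 core, stood in 33.3% against 22.4%, CCGGAAG, an ETS site, in 27.3% against 25.5%, and AAGATGG, a YY1 site, in 33.3% against 21.0%. In the 300 bp around the TSS the order turned for the ETS site, 15.2% against 17.4%, and for the YY1 site, 6.06% against 6.67%. GGGCGG, an SP site, was less common, in 72.7% against 80.0%. The member windows were also lower in GC, with a median of 49.2% against 53.1%, and 56.7% against 62% in the 300 bp around the TSS. No motif share was tested, and the base composition moved with them.

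**Figure D4:**
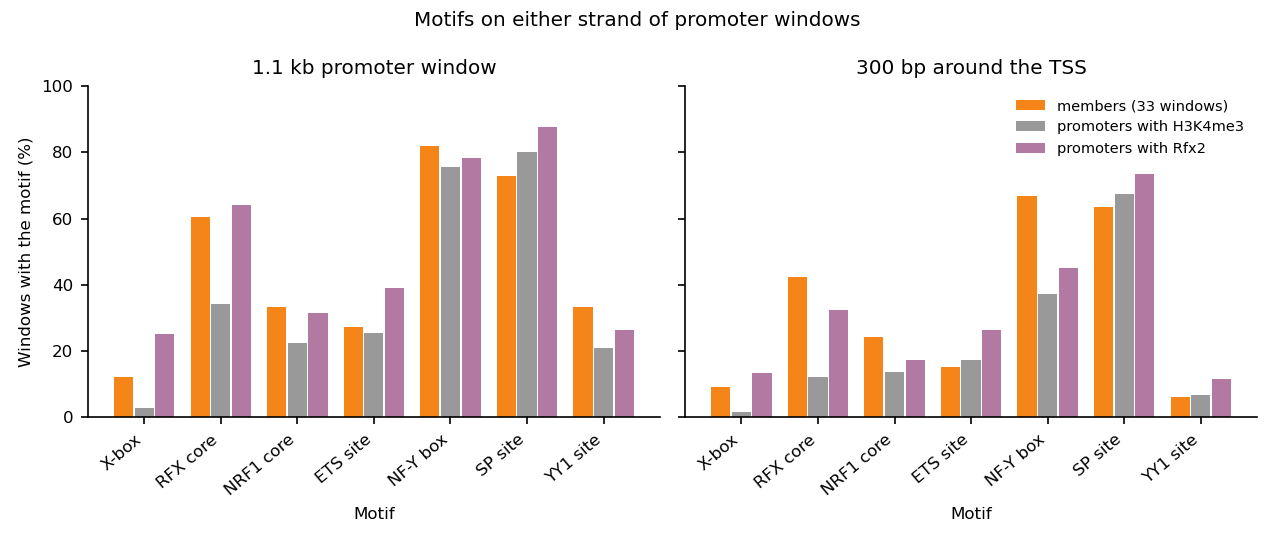
Share of promoter windows that hold each motif on either strand, in the promoter window (left) and in 300 bp around the TSS (right), for the 33 windows of the members (orange), all windows with H3K4me3 (grey) and all windows with Rfx2 (purple); RFX core is GTTGCC. Member windows with the X-box (12.1%) lie between those with H3K4me3 (2.89%) and those with Rfx2 (25.3%), and the RFX core reaches 60.6% against 34.1% with H3K4me3.

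Other ciliary genes give the setting. Of 22 further genes of the IFT pathway and ciliary traffic, 7 had MOF and 3 had Rfx2: Lztfl1, which links the BBSome to transport, at a fold enrichment of 11.4, Arl13b, a ciliary GTPase, at 7.87, and Fuz, a planar polarity effector, at 5.91. Of 31 genes of the BBSome, the cargo adaptor of IFT, and of the transition zone, the gate at the ciliary base, 16 had MOF and 11 had Rfx2 (35.5%, interval 19.2 to 54.6). The highest Rfx2 fold enrichments there were 18.1 at B9d2, 15.3 at Bbs2 and 11.9 at Tctn2, on either side of the 16.4 of Ift57. Nphp4 had 8.41, Tmem107 8.0, Ttc8 7.49, Tmem138 7.13, B9d1 6.85, Tctn1 5.82 and Arl6 5.55. Of 29 centriole and basal body genes, 18 had MOF (62.1%, interval 42.3 to 79.3) and 0 had Rfx2, which allows a share of up to 11.9%. Of 27 genes of motile cilia, 6 had MOF and 3 had Rfx2 (Ccdc103 at 14.1, Ccdc151 at 10.04 and Foxj1 at 8.45). The intervals of the members, 18.6 to 53.2 for MOF and 5.28 to 32.8 for Rfx2, overlapped those of each of these lists, and no test between the lists was made. For H3K4me3 the median fold enrichment was 11.5 in the BBSome and transition zone list and 8.56 in the centriole list. The members' 10.8 lay between them. For H3K27Ac these lists had medians of 8.38 and 7.62, both above the members' 6.70.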

How the data were processed

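The authors mapped the reads (single-end for MOF, paired-end for the rest) with Bowtie2 to mm10 and ran MACS2 once per library. A control library for the calls is not given in the sources used here. The deposited H3K4me3, H3K27Ac and Rfx2 lists gave the summit, the fold enrichment, a ratio made by the authors' peak caller, and significance as −log10 p-value and as −log10 q-value. The deposited MOF list gave gapped peaks (spans with inner strong blocks) with a score of unstated scale and no summit; more peaks stand in it than the authors counted for MOF, so a different call or one without a filter may have been deposited, which bears on all MOF counts here. The lists held 27039 (H3K4me3), 30736 (H3K27Ac), 17546 (MOF) and 337 (Rfx2) peaks and no read counts, so no peak could be weighed by its reads. The read totals that the study gives for its libraries were not used here; they differ severalfold, and that of Rfx2 is the lowest among the libraries used. The labels attach the H3K4me3 list to the repeat library, but its name lacks the mark of a repeat. The H4K16Ac and H3K4me1 libraries, and the other library of H3K4me3 and of H3K27Ac, were not used here.

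Peaks were overlapped (at least 1 bp) with windows around the TSSs of curated RefSeq transcripts of GRCm38.p6, the assembly named mm10, and no peak ended beyond a chromosome of it. A partner was a gene on the opposite strand that started within 1000 bp. The tools were Python 3.11.15, pandas 2.3.3, pysam 0.24.0, samtools 1.23.1 and scipy 1.17.1. On simulated data the overlap counts were the same as those of bedtools 2.31.1 in all of 3000 windows and 200 of 200 planted X-boxes were found. Named genes were all members, their partners, and the genes of the other ciliary lists with Rfx2, up to 10 a list by fold enrichment. Members and lists were chosen with earlier results of these data known. Alternatives changed the window, the overlap rule, the list threshold, the transcripts, the motif window, the X-box spacing and the measure of height. The count by MOF strong blocks (blocks longer than 1 bp) was added after the data were seen.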

Additional observations from a re-analysis of the deposited data

How the results depend on the processing

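No paired analysis was possible because only 1 list existed for every antibody. Of 99 alternative values, 85 stayed within the set limits (1.5 times a count, 5 points of a percentile), as did all 5 added after seeing the data, the counts of MOF by strong blocks only (10 members in place of 11, with Ift81 lost). With the peak centre inside the window, H3K4me3 was counted at 14 members in place of 32, MOF at 1 motor promoter in place of 2, and Rfx2 at 3 members in place of 5, with 1 in IFT-A and 1 in IFT-B in place of 2 each. With at least 100 bp of overlap, Rfx2 also lay at 3 members, with 1 in IFT-A and 1 in IFT-B. With each list limited to the 50% of peaks of highest score (MOF) or significance (the others), Wdr35 was lost, which left 1 IFT-A promoter with Rfx2. The X-box with exactly 2 bases between its repeats stood in 2 member windows in place of 4. Ranked by the −log10 q-value, the median percentile of the members was 67.7 in place of 82.7 for H3K4me3 and 34.7 in place of 49.7 for H3K27Ac. In 300 bp around the TSS, the ETS site stood in 5 windows (15.2%, against 17.4% of those with H3K4me3) in place of 9 and the YY1 site in 2 (6.06% against 6.67%) in place of 11. The lists give no read counts and the libraries differ in depth, so a missing peak does not show that a factor was absent.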
